A study of Arabidopsis thaliana with 8 samples.

Results

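HET inflorescences, from Arabidopsis thaliana plants heterozygous for a T-DNA insertion in TCP15 (AT1G69690) and for another in TCP14 (AT3G47620), were set against control inflorescences (CON). The comparison rested on 4 of the 8 arrays of the study, 2 labelled HET and 2 labelled CON, and on all 22746 probe sets that are not manufacturer controls, of 22810 on the array. Plants of every group were of the Ws ecotype and were raised on compost under glass, at 18 °C in days of 16 h. Inflorescences were taken at growth stage 6.0, with 10 plants to a pool. The labels name no genetic modification for CON. The other 4 arrays were 2 of T13, whose T-DNA insertion is in TCP14, and 2 of T14, whose insertion is in TCP15. Each gene was represented by 1 insertion line, the zygosity of T13 and T14 is not stated, and the labels do not say whether arrays of 1 group are independent pools. HET replicate 2, alone among the arrays, is titled as a repeat, without a statement of what was repeated. The p-values therefore cover array-to-array spread only, some or all of which may be technical.

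TCP proteins are plant transcription factors named after founding members of maize, snapdragon and rice. TCP14 and TCP15 are closely related members of class I of the family and are known in Arabidopsis for roles in the growth of internodes, leaves and floral organs. An inflorescence holds open flowers and buds of many ages, so its RNA is a mixture from sepals, petals, carpels, stem, anther walls and developing pollen. Late pollen makes large amounts of RNA for enzymes of the cell wall and for signalling proteins that the pollen tube uses. The tapetum, the inner layer of the anther wall, feeds younger pollen and lays down its coat, and it degenerates before the pollen is ripe.

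Each probe set had 1 hybridisation intensity on every array, in linear units on a scale common to the 8 arrays. Array medians ran from 51.35 to 59.5, with HET replicate 1 the lowest. HET replicate 1 also stood apart in control probe sets for the 2 ends of abundant transcripts. Its 5′ over 3′ GAPDH ratio was 0.345, against 0.0639 to 0.129 on the other 7 arrays. A second pair of GAPDH probe sets gave 0.733 on that array against 0.36 to 0.474, and a pair for actin 0.267 against 0.0741 to 0.152. The other actin pair did not set it apart, at 0.0732 against 0.0695 to 0.119. The control probe set for 25S ribosomal RNA read 199.2 on HET replicate 1, against 687.0 to 3321.9 on the other 7 arrays. The counts for the comparisons of HET are therefore also given without that array. Among the named probe sets none was for TCP14 and none for any of 10 floral identity genes such as AP1, AG and SEP3, so neither the TCP14 genotype nor the tissue could be checked with them.

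TCP15 itself did not differ measurably between HET and CON. Its intensity was 198.2 and 244.0 in CON and 188.2 and 221.8 in HET, so the groups overlapped. The log2 difference was -0.10 (limma adjusted p = 0.994), and leaving out CON replicate 2 or HET replicate 1 turned it to 0.041 and 0.011. The T14 arrays, which carry an insertion in this gene, read 86 and 68.8, and HET lay above them by a log2 difference of 1.24 (limma adjusted p = 0.01).

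HET differed from CON almost wholly by lower levels. Of 15045 probe sets bright enough to be tested, 161 (1.07%) passed at a limma adjusted p under 0.05, of which 154 (1.02%) were lower in HET and 7 (0.0465%) were higher. Over all tested probe sets the groups separated about equally often in either direction. Both HET arrays lay below both CON arrays for 17.4% of the tested probe sets and above them for 16.8%. Their median log2 difference was 0.0023. The 154 lower probe sets had a median of -2.00, from -3.27 to -1.11, and their intensity in HET was at the median 18.0% of that in CON. Every log2 difference was taken after adding 16 to the intensity, which understates the change of dim genes. In whole inflorescences, fewer cells of a type and less RNA per cell cannot be told apart.

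The lower probe sets were low on both HET arrays. Their median intensity was 167.8 and 166.0 on the CON arrays, 55.9 and 58.25 on T13, 104.9 and 146.6 on T14, and 27.55 and 33.65 on HET. HET replicate 1 read below HET replicate 2 for 102 of the 154 and above it for 52. Without HET replicate 1, 86 probe sets (0.577%) passed as lower and none as higher in limma, 667 having an unadjusted p under 0.05, and 84 of the 154 were still among them. Without HET replicate 2, 100 passed as lower (0.672%) and 4 as higher (0.0269%). With the GAPDH ratio as a covariate 52 passed, all lower. Without CON replicate 2, 103 probe sets passed, 97 of them among the 161 called with all arrays. With scanner background as a covariate 102 passed, 95 of them among the 161, the background average being 112.87 and 87.36 on the CON arrays and 86.81 and 83.50 on HET. What part RNA integrity or scanner background plays in the calls was not tested beyond these fits.

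**Figure D1:**
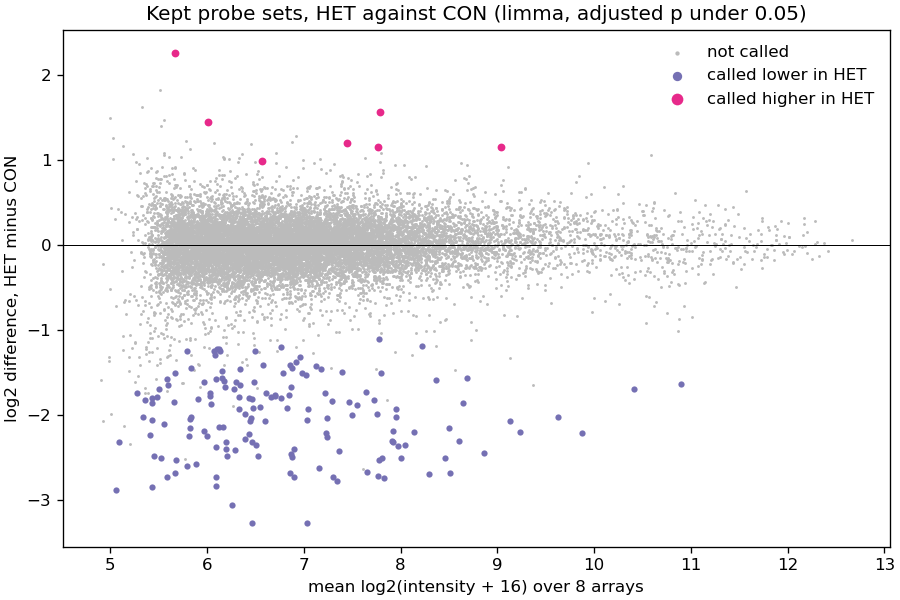
Each point is 1 of the 15045 tested probe sets, with its mean log2(intensity + 16) over the 8 arrays on the horizontal axis and the log2 difference of HET from CON on the vertical axis. The 154 probe sets called lower (purple) lie between -3.27 and -1.11 over most of the range of levels, and the 7 called higher (pink) between 0.99 and 2.25.

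Of the 154 lower probe sets, 89 named 1 gene, 6 named several and 59 stay unnamed here. A role could be given from general knowledge to 48 of the 89 genes, and the groups that follow were formed after the values were seen and carry no test of their own. The largest group, 18 genes, held enzymes acting on pectin, a charged cell wall polysaccharide, and members of the invertase and pectin methylesterase inhibitor family. The next held 9 genes of the cytoskeleton, membrane traffic and calcium binding, 8 of other cell wall proteins, and 6 of small peptides and their receptor kinases. The rest were 3 other kinases, 2 proteins like the olive pollen allergen Ole e 1, and 2 transcription factors.

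The 18 pectin genes had a median log2 difference of -2.33, from -2.73 to -1.59. Pectin leaves the Golgi methylated, and pectin methylesterases remove those groups, which sets how stiff the wall is and opens it to cleavage. The pectin methylesterase AT3G17060 read 141.2 and 156.0 in CON and 10.6 and 7.3 in HET, a log2 difference of -2.72 (SE 0.28, limma adjusted p = 0.000371). AT5G07420, of the same family, read 66.1 and 175.0 in CON against 3.7 and 2.2 in HET (log2 -2.73, SE 0.37, limma adjusted p = 0.00215). Its HET values lie near the floor of the arrays, its CON arrays disagreed, and it did not pass without CON replicate 2.

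AT5G07430, the gene next to AT5G07420, read 429.9 and 485.3 in CON against 60 and 75.5 in HET, which is 14.8% of CON (log2 -2.50, SE 0.23, limma adjusted p = 0.000219). AT3G05610 fell from 220.2 and 238.8 to 25.7 and 29.4 (log2 -2.50, limma adjusted p = 0.000219). For both genes the 2 HET arrays lay close together and far below CON. AT2G26450 fell less, from 159.8 and 83.8 to 28.7 and 24.2 (log2 -1.64, limma adjusted p = 0.00626), a call lost without CON replicate 1 or without either HET array.

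A probe set shared by the neighbouring pectin methylesterase genes AT2G47040 and AT2G47030 read 2030.3 and 1677.1 in CON and 337.2 and 441.7 in HET (log2 -2.21, SE 0.24, limma adjusted p = 0.000574). The array cannot say which of the 2 genes the signal came from.

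Polygalacturonases cut demethylated pectin by hydrolysis. AT5G48140 went from 524.9 and 439.4 in CON to 55.6 and 63.3 in HET, which is 12.3% of CON (log2 -2.72, SE 0.24, limma adjusted p = 0.000219). AT3G07820 went from 753.0 and 782.3 to 106.9 and 103.4 (log2 -2.69, SE 0.26, limma adjusted p = 0.000261). Both passed in all 19 alternative settings.

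Pectate lyases cut the same chains by elimination. AT59, named for its homology to a tomato anther gene, read 125.9 and 113.0 in CON and 6.0 and 7.6 in HET (log2 -2.57, SE 0.28, limma adjusted p = 0.000596). AT2G02720 read 160.5 and 162.9 against 18.0 and 16.8 (log2 -2.41, limma adjusted p = 0.000219), and AT5G15110 162.1 and 168.6 against 22.7 and 22.8 (log2 -2.23, limma adjusted p = 0.000219). AT3G01270 read 672.0 and 748.0 against 130.7 and 166.3 (log2 -2.15, limma adjusted p = 0.000369). For all 4 lyases the HET arrays lay close together far below CON, and none lost its call without HET replicate 1.

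The other 7 pectin genes belong to the family of invertase and pectin methylesterase inhibitors, proteins that block one or the other enzyme. The list fixed for pectin methylesterase inhibitors matched no probe set by name. What share of the tested members of this family was called is therefore not known. AT1G10770 read 572.8 and 627.4 in CON and 115.0 and 74.1 in HET (log2 -2.50, SE 0.23, limma adjusted p = 0.000221). AT4G02250 read 280.8 and 331.8 against 50.2 and 56.8 (log2 -2.21, limma adjusted p = 0.000574), and AT2G47050 398.4 and 482.1 against 102.5 and 122.5 (log2 -1.83, limma adjusted p = 0.00169). AT5G50030 kept the largest share of its CON level, 31.3%, with 613.7 and 522.5 in CON and 159.4 and 196.0 in HET (log2 -1.59, limma adjusted p = 0.00354). AT1G23350, AT3G62180, APPB1 and AT5G50030 did not pass without HET replicate 1. Of the 18 pectin genes, enzymes and inhibitors together, 13 were also called without that array.

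Not every tested member of the pectin enzyme families was called. In lists written after the values were seen, 6 of 24 tested probe sets for pectin methylesterases were called lower, 4 of 19 for pectate lyases and 2 of 5 for polygalacturonases, against 1.02% of all tested probe sets, and none was called higher. The polygalacturonase list held only 13 genes known from the literature, so its count is not a share of that whole family. Without HET replicate 1 these counts were 5, 4 and 2. The 15 pectate lyases that were not called lay between -0.20 and 0.51, with no value in between them and the 4 that were. AT4G24780, for example, read 613.7 and 580.2 in CON and 851.9 and 659.6 in HET (log2 0.32, limma adjusted p = 0.943). The fixed list of pectin methylesterases, matched by gene name only, had 3 tested members, none of them called (median log2 difference -0.15). They included PME61 at -0.39 and ATPMEPCRB at 0.29 (limma adjusted p = 0.943 and 0.946). Pectin methylesterases of the later list spread more evenly, the 18 not called running from -1.83 to 0.29. The lowest of these was a probe set shared by AT1G69940 and AT5G07410, at 311.5 and 795.0 in CON and 143.7 and 116.2 in HET (log2 -1.83, limma adjusted p = 0.0515). Of the polygalacturonases not called, a probe set shared by AT3G14040 and AT3G07850 read 926.7 and 1804.9 against 310.3 and 524.3 (log2 -1.64, limma adjusted p = 0.0641), and AT1G48100 lay higher in HET by 0.73 (limma adjusted p = 0.634).

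**Figure D2:**
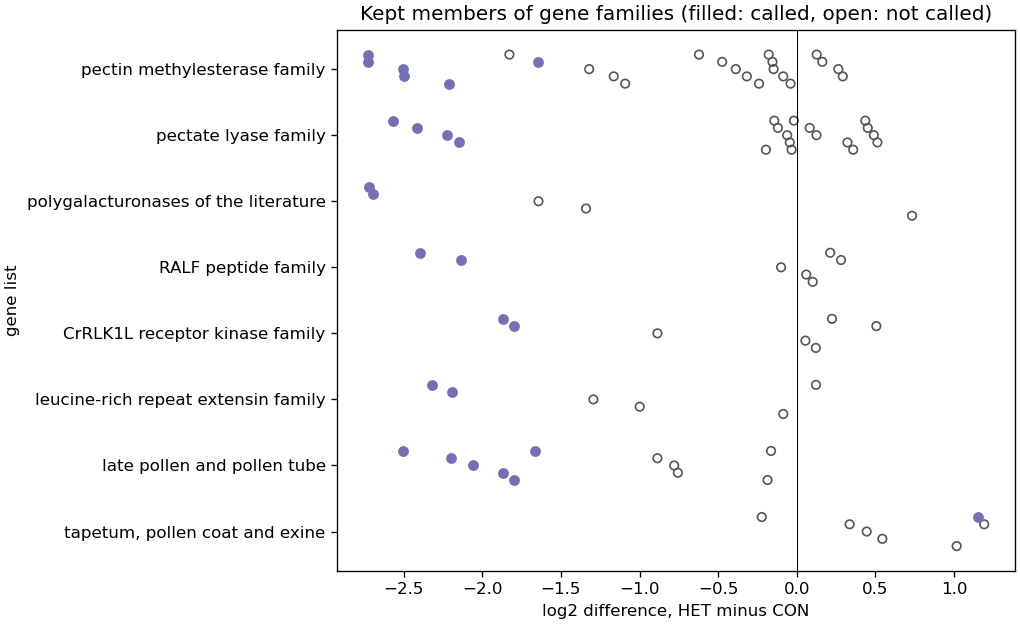
Each point is a tested probe set of a gene list, placed by the log2 difference of HET from CON, filled where limma called it at an adjusted p under 0.05 and open where it did not. Called pectate lyases lie at -2.57 to -2.15, apart from the open points of that family at -0.20 to 0.51, and the tapetum list lies mostly to the right of 0.

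The 8 other cell wall genes had a median log2 difference of -1.96. EXPB5, a beta-expansin, one of the proteins that loosen walls without cutting them, fell from 181.9 and 204.6 to 47.2 and 52.5, which is 25.8% of CON (log2 -1.67, SE 0.19, limma adjusted p = 0.0007). EXPB5 kept its call in all 19 alternatives. AT3G62710, of a glycosyl hydrolase family, read 526.7 and 377.6 in CON and 64.7 and 90.2 in HET (log2 -2.32, limma adjusted p = 0.000617). The cellulase family genes GH9A4 and GH9B11 were close to the threshold, with log2 differences of -1.41 and -1.69 (limma adjusted p = 0.033 and 0.0372). Of a broader list of wall hydrolases and expansins, EXPB5, GH9A4 and GH9B11 were the 3 called lower of 31 tested, against 1.02% of all tested probe sets, none was called higher, and the median was 0.01. Without HET replicate 1 the count was 2, and GH9A4 did not pass (limma adjusted p = 0.416).

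Leucine-rich repeat extensins are wall-bound proteins that hold RALF peptides, and several of them occur chiefly in pollen. Among 6 tested, 2 of the pollen forms were called lower, against 1.02% of all tested probe sets. AT2G15880 read 105.2 and 73.6 in CON and 6.3 and 7.4 in HET (log2 -2.19, SE 0.27, limma adjusted p = 0.00101). AT3G19020 read 172.5 and 108.6 against 3.7 and 31.8 (log2 -2.32, SE 0.36, limma adjusted p = 0.00687). The HET arrays of AT3G19020 disagreed, and without HET replicate 1 its log2 difference was -1.68 and did not pass (limma adjusted p = 0.0529). The pollen forms AT1G49490 and AT4G33970 had differences of -1.29 and -0.999 that did not pass (limma adjusted p = 0.152 and 0.279). The forms of vegetative tissue AT3G24480 and AT4G18670 had 0.12 and -0.09 (limma adjusted p = 0.994 and 0.996).

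RALF peptides are small secreted signals that bind receptor kinases of the CrRLK1L family, and in pollen tubes this pairing keeps the growing tip from bursting. On the side of the ligands, RALFL26 fell from 231.6 and 245.3 to 28.4 and 36.7 (log2 -2.40, SE 0.22, limma adjusted p = 0.000219). RALFL25 fell from 124.1 and 129.5 to 13.2 and 20.2 (log2 -2.14, SE 0.24, limma adjusted p = 0.000639). Both remained called in each of the 19 alternatives. These were 2 of 7 tested RALF genes, against 1.02% of all tested probe sets called lower, and the other 5 were not called and lay between -0.10 and 0.28. Among them RALFL34 read 1399.9 and 1028.6 in CON and 1188.7 and 1396.1 in HET (log2 0.10, limma adjusted p = 0.995).

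On the side of the receptors, 2 of 7 tested CrRLK1L probe sets were called lower, against 1.02% of all tested probe sets. AT4G39110, a pollen kinase of this family, read 98.3 and 90.3 in CON and 6.6 and 24.5 in HET (log2 -1.87, SE 0.29, limma adjusted p = 0.00639). ANX2, which keeps pollen tubes intact together with its paralogue ANX1, read 61.6 and 65.1 against 4.3 and 9.6 (log2 -1.80, SE 0.33, limma adjusted p = 0.0202). ANX1 was too dim to be tested. Neither call held without HET replicate 1, where the differences were -1.44 and -1.63 (limma adjusted p = 0.0725 and 0.243). ANX2 also failed without each of the other 3 arrays compared, and AT4G39110 without either CON array. FER and THE1, receptors of the same family in vegetative tissue, had log2 differences of 0.51 and 0.22 (limma adjusted p = 0.687 and 0.97).

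LCR72, a defensin-like cysteine-rich peptide, fell from 123.2 and 174.4 to 25.4 and 22.2 (log2 -2.03, SE 0.25, limma adjusted p = 0.00101). In a list of 14 tested cysteine-rich peptides, RALFL25, RALFL26 and LCR72 were the 3 called lower, against 1.02% of all tested probe sets, none was called higher, and the median was -0.07. The same number was called without HET replicate 1. AT3G10460, of the family of poppy self-incompatibility proteins, fell from 64.8 and 77.2 to 22.3 and 18.8 (log2 -1.25, limma adjusted p = 0.027), a call lost without any 1 of the 4 arrays compared.

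Among other kinases, AT3G61160, of the shaggy-like family, fell from 555.1 and 457.1 to 76.6 and 93.3 (log2 -2.37, SE 0.23, limma adjusted p = 0.000263). AT3G20530, a receptor-like cytoplasmic kinase, fell from 106.8 and 89.5 to 10.5 and 5.8 (log2 -2.24, SE 0.30, limma adjusted p = 0.00194). Both were also called without HET replicate 1.

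The 9 genes of the cytoskeleton, membrane traffic and calcium group had a smaller median, -1.61. PLIM2a, a LIM protein that bundles actin filaments in pollen, fell from 274.6 and 234.5 to 38.8 and 60.4, which is 19.5% of CON (log2 -2.06, SE 0.23, limma adjusted p = 0.000679). AT3G54800, with lipid-binding PH and START domains, fell from 154.9 and 167.9 to 22.6 and 30.5 (log2 -2.07, SE 0.20, limma adjusted p = 0.000279). These 2 were the only genes of the group still called without HET replicate 1. SP1L4, a microtubule-associated protein, read 205.8 and 138.8 in CON and 53.3 and 63.2 in HET (log2 -1.32, limma adjusted p = 0.0111), and the small GTPase SGP2 115.7 and 116.1 against 36.3 and 42.7 (log2 -1.25, limma adjusted p = 0.00588). Further members were AT1G25240 and AT1G68110, of a clathrin adaptor family, the EF-hand proteins AT4G03290 and AT3G03430, and the C2-domain gene AT2G13350, with log2 differences from -1.79 to -1.38.

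AT5G45880, of the Ole e 1 family of secreted pollen proteins, read 1181.9 and 1208.8 in CON and 219.7 and 280.4 in HET (log2 -2.20, SE 0.27, limma adjusted p = 0.00111). AT1G29140, of the same family, fell from 168.2 and 240.4 to 67.0 and 64.5 (log2 -1.41, limma adjusted p = 0.00352). The transcription factors were AT1G35490, of the bZIP family, from 151.0 and 126.6 to 13.5 and 12.8 (log2 -2.40, limma adjusted p = 0.000953), and UPB1, a bHLH protein known in roots for control of peroxidase genes, from 65.4 and 46.7 to 10.0 and 3.9 (log2 -1.65, limma adjusted p = 0.033). AT1G35490 passed without HET replicate 1 and UPB1 did not.

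**Figure D3:**
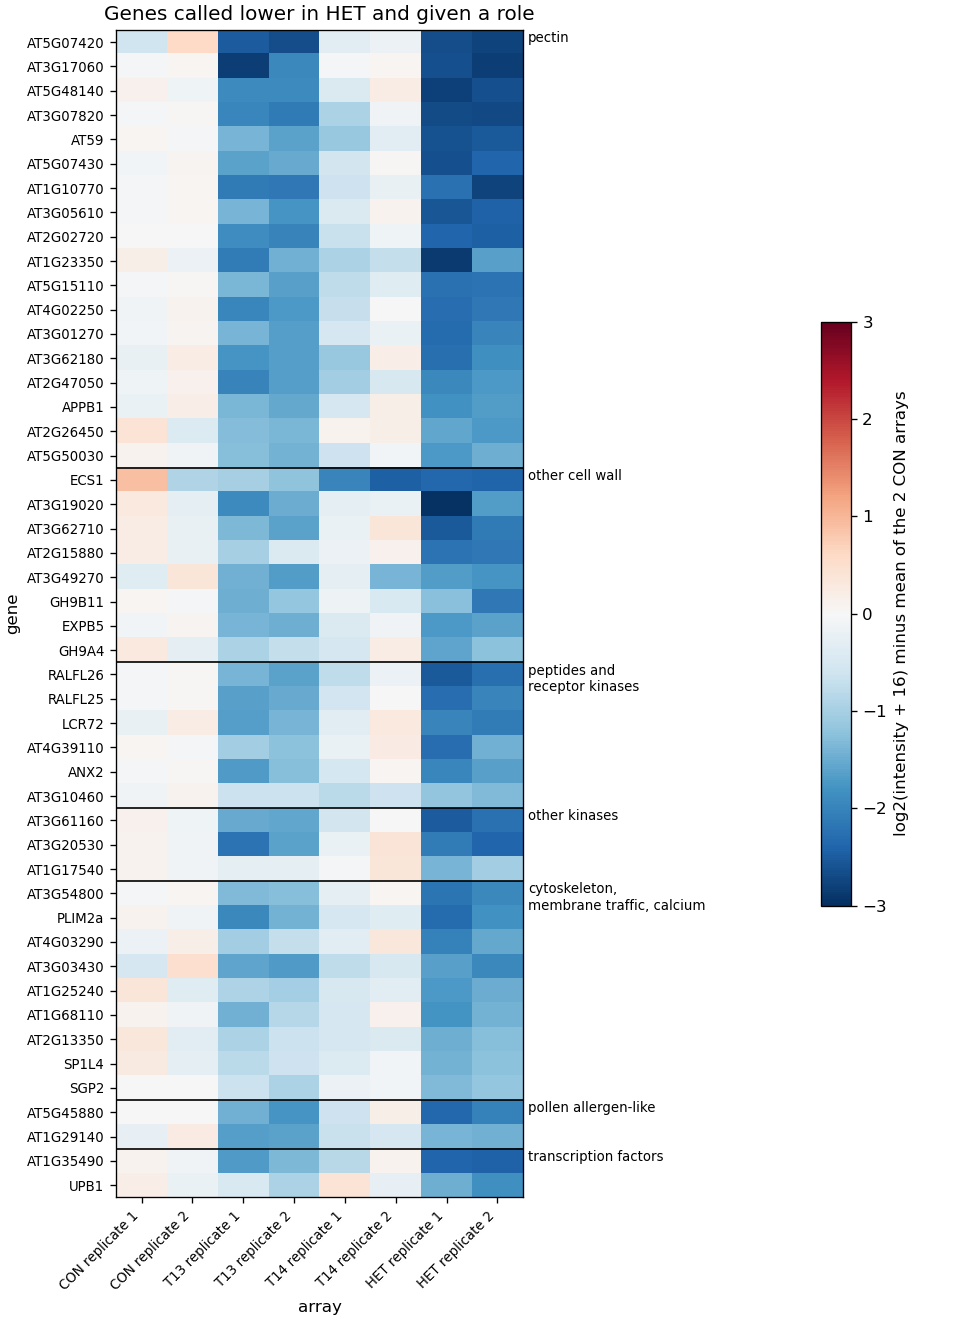
Rows are the 48 genes called lower in HET and given a role, columns the 8 arrays, and colour the log2(intensity + 16) minus the mean of the 2 CON arrays. Both HET columns are blue throughout, the T13 columns are mostly a lighter blue, the column of T14 replicate 1 is mostly a pale blue, and that of T14 replicate 2 is mostly near white.

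Several of the largest falls had no well-known role. AT5G47350 had the largest log2 difference among genes with a name, -3.27, from 264.7 and 597.6 in CON to 24.4 and 29.8 in HET, but the CON arrays were far apart (SE 0.67, limma adjusted p = 0.0415). This gene passed in only 8 of 19 alternatives and failed without any 1 of the 4 arrays compared (limma adjusted p from 0.0848 to 0.403). AT1G54070, of a dormancy- and auxin-associated family, was firmer, at 200.1 and 121.2 against 7.0 and 2.6 (log2 -3.06, SE 0.29, limma adjusted p = 0.000224), and passed in all 19. AT1G04470 read 132.8 and 164.1 against 1.4 and 14.5 (log2 -2.83, SE 0.35, limma adjusted p = 0.00118).

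AT5G39880 read 356.3 and 387.5 in CON and 33.8 and 48.6 in HET (log2 -2.77, limma adjusted p = 0.000219). AT3G26110, of a family of anther-specific proteins, read 337.2 and 385.8 against 50.1 and 33.1, and AT1G78460, of a haem-binding family, 296.7 and 274.7 against 25 and 34.8, with log2 differences of -2.73 and -2.72. The peroxidase AT5G47000 went from 339.6 and 306.9 to 35.6 and 43.2 (log2 -2.62, limma adjusted p = 0.000219). In each of these the 2 HET arrays lay together at a small share of CON. AT5G50830, AT1G19500 and AT3G01240 completed the 15 largest, with -2.69, -2.60 and -2.53.

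A list of genes known from late pollen and the pollen tube summarised the direction of many of these falls. Of its 69 genes 16 had a named probe set and 11 were tested, of which 6 were called lower, against 1.02% of all tested probe sets, and none higher, with a median log2 difference of -1.67. The 6 were AT5G07430, PLIM2a, EXPB5, AT5G45880, ANX2 and AT4G39110, and the first 4 were also called without HET replicate 1. The 5 not called lay between -0.89 and -0.16, among them the LIM gene PLIM2b at 103.2 and 151.6 in CON and 53.4 and 81.7 in HET (log2 -0.78, limma adjusted p = 0.347). AGL65 and AGL66, MADS factors of the pollen, had -0.19 and -0.16 (limma adjusted p = 0.988 and 0.99). Summed over the 16 probe sets, the intensity was 2675 and 2737 in CON and 585.4 and 770.9 in HET, against 999.5 and 989.1 in T13 and 1856 and 2820 in T14. The list was chosen with results of these arrays known, so it is no independent evidence of a direction. The sperm cell gene MGH3 was too dim to be tested, at 5.2 and 17.8 in CON and 2.3 and 2.4 in HET.

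Genes of the anther wall mostly had positive differences. Of 39 tapetum and pollen coat genes 7 were tested, with a median log2 difference of 0.54, and ATA27 alone was called, as higher, against 0.0465% of all tested probe sets. Without HET replicate 1 none was called, ATA27 having a log2 difference of 0.92 (limma adjusted p = 0.239). Summed over 11 probe sets, the intensity was 780.3 and 803.2 in CON, 918.3 and 930.7 in T13, 308.1 and 532.1 in T14, and 1692 and 1188 in HET. The share of anther stages in the harvest was not measured, and its part in either list was not tested.

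ATA27, a beta-glucosidase of the tapetum, read 207.2 and 209.9 in CON and 568.7 and 407.8 in HET, which is 2.34 times CON (log2 1.15, SE 0.21, limma adjusted p = 0.0187). SHT, a tapetal transferase that makes spermidine conjugates of the pollen coat, read 45.3 and 37.6 against 145.6 and 90.0, a log2 difference of 1.19 that did not pass (limma adjusted p = 0.123). AT5G07230, a lipid-transfer-like gene of the tapetum, read 156.4 and 192.7 against 502.2 and 268.1 (log2 1.02, limma adjusted p = 0.662). In all 3 genes both HET arrays lay above both CON arrays, as they did for 16.8% of all tested probe sets. HET replicate 1 was the higher in each. The tapetum list, too, was chosen with results of these arrays known. AMS, the bHLH regulator of tapetal genes, had 0.54 (limma adjusted p = 0.824), and the sugar transporter SWEET8 had -0.22 (limma adjusted p = 0.99).

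The other 5 named genes that rose came from unrelated families. AT1G12010, an enzyme of the ACC oxidase family, which performs the last step of ethylene synthesis, read 8.5 and 4.6 in CON and 69.2 and 117.4 in HET (log2 2.25, SE 0.41, limma adjusted p = 0.0205). The CON values lie far below the 40th percentile of their arrays, at 39.9 and 36.4, so the size of this rise is uncertain. The peroxidase AT4G36430 read 33.0 and 18.7 against 105.8 and 87.3 (log2 1.44, SE 0.24, limma adjusted p = 0.0105).

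AT5G48210 read 133.2 and 159.5 in CON and 419.5 and 298.2 in HET (log2 1.19, limma adjusted p = 0.0153). AT5G20700, of a zinc finger family, read 362.1 and 324.3 against 817.5 and 740.1 (log2 1.15, limma adjusted p = 0.0449), and AT5G16920, of the fasciclin-like family, 62.7 and 69.1 against 143.5 and 149.3 (log2 0.99, limma adjusted p = 0.0176). For both of the last genes the 2 CON arrays lay close together, as did the 2 HET arrays. The seventh called rise was an unnamed probe set at 162.1 and 242.2 in CON and 766.5 and 498.7 in HET (log2 1.57). None of the 7 passed without HET replicate 1, where the 6 named genes had log2 differences from 0.92 to 2.57 (limma adjusted p from 0.113 to 0.366). None of the 6 passed without CON replicate 2, and ATA27 and AT5G48210 alone among them passed without HET replicate 2, while AT4G36430 alone passed without CON replicate 1.

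**Figure D4:**
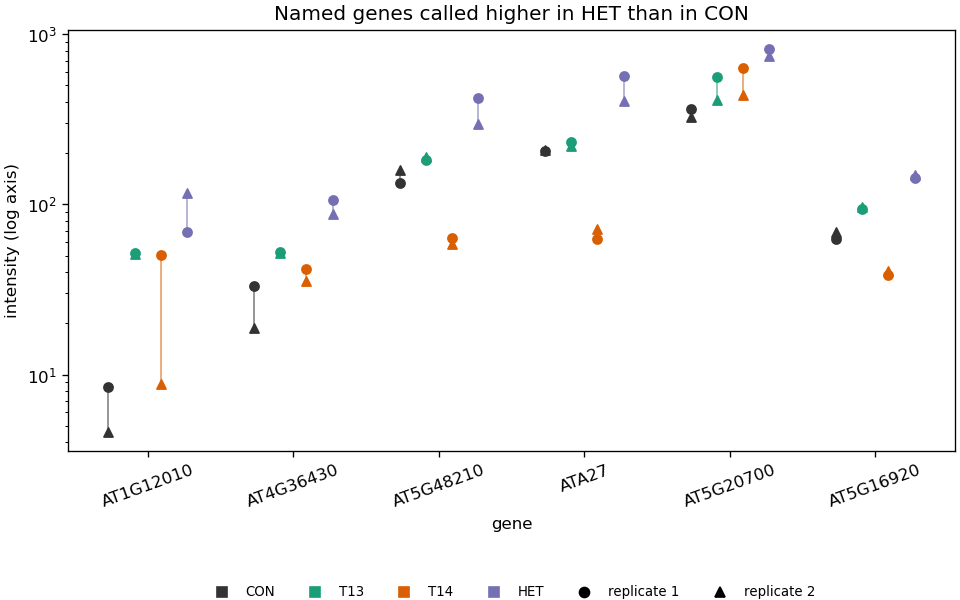
Intensity on a log axis for the 6 named genes called higher in HET, with 1 point per array, circles for replicate 1 and triangles for replicate 2. In every gene both HET points lie above all 6 other points. ATA27, AT5G48210 and AT5G16920 have their lowest points in T14.

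Most other lists held no call, which at 1.07% called over all tested probe sets says little of lists this short. None was called, in limma at an adjusted p under 0.05, among 9 tested photosynthesis genes (median log2 difference 0.19), 7 of cell cycle and histones (-0.07), 10 transcription factors (-0.07), 10 cytochromes P450 (-0.22), 6 of calcium signalling (-0.05), 4 peroxidases (-0.01), 4 of the gynoecium (0.07) or 3 of auxin response (-0.20). Some of these lists were matched by gene name only and are not whole families. They left out called genes given above: the peroxidases AT5G47000 (lower) and AT4G36430 (higher), and, all lower, the transcription factors AT1G35490 and UPB1 and the EF-hand genes AT4G03290 and AT3G03430. RCA, the activase of Rubisco, read 2314.2 and 2405.2 in CON and 3139.5 and 3162.2 in HET, a separation of groups that did not pass (log2 0.42, limma adjusted p = 0.893). The histone HTB2 and the kinase AUR1, both of dividing cells, had -0.84 and -0.48 (limma adjusted p = 0.543 and 0.816). In the flavonoid list BAN, an enzyme of proanthocyanidin synthesis, read 62.3 and 90.2 in CON and 1.7 and 2.2 in HET, without passing (log2 -2.35, SE 0.61, limma adjusted p = 0.156). DFR, upstream of it in the pathway, read 112.2 and 114.7 against 32 and 44.8 (log2 -1.26, limma adjusted p = 0.0761). The SE is shared by all 4 groups, and for BAN the T14 arrays read 115.8 and 9.3. With only the compared groups fitted, BAN and DFR both passed (limma adjusted p = 0.00165 and 0.00764), as they did when T14 replicate 1 or T14 replicate 2 was left out, and in none of the other 16 alternatives. Genes of roots and seeds such as EXPA7 and of the floral meristem such as CLV3 were too dim to be tested.

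Nearest inside the threshold among named genes were AT5G20700, AT5G47350 and GH9B11 (limma adjusted p = 0.0449, 0.0415 and 0.0372), and nearest outside AT3G28790, AT3G52620 and DI21 (0.0515, 0.0524 and 0.0528).

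Some probe sets that stand for several genes were also called lower, and these were picked out after their values were seen. One for the paralogues AT1G57860 and AT1G57660, of ribosomal protein L21, read 2537.0 and 2584.8 in CON, 2659.0 and 2703.1 in T13, 1748.4 and 3009.7 in T14 and 959.5 and 692.5 in HET (log2 -1.63, SE 0.27, limma adjusted p = 0.00982). In T13 this probe set lay above CON, and HET differed from T13 by -1.70 without passing (limma adjusted p = 0.168). A probe set for 5 F-box loci including AT1G25150 read 474.0 and 304.5 in CON and 36.9 and 114.0 in HET (log2 -2.26, limma adjusted p = 0.00631), and one for 3 loci including AT1G25097 read 349.9 and 179.0 against 10.6 and 72.7 (log2 -2.46, limma adjusted p = 0.0202). In T14 these 2 read 45.3 and 40.0, and 40.0 and 27.8, and in T13 they stood between 249.1 and 275.9. The call for AT1G25097 was lost without HET replicate 1 or CON replicate 1, and that for AT1G25150 without CON replicate 1. The ribosomal protein probe set passed in 13 of 19 alternatives and lost its call without HET replicate 2 or without either CON array.

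HET was then set against each single line, contrasts that do not use the CON means. Against T13 none of the 15045 probe sets passed in limma (0%), although 1491 had an unadjusted p under 0.05, and the count ran from 0 to 2 over the alternatives. Without HET replicate 1 it was also 0, and 425 had an unadjusted p under 0.05. Among probe sets naming 1 gene, the smallest p-values belonged to AT1G23960, AT1G54070 and 2A6. Their log2 differences were -1.86, -1.77 and -1.40 (limma adjusted p from 0.168 to 0.224). AT1G54070 read 42.8 and 69.1 in T13 against 7.0 and 2.6 in HET.

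Against T14, 146 probe sets (0.97%) passed, 110 lower in HET (0.731%) and 36 higher (0.239%). The largest named falls were AT1G04470 (log2 -2.75), AT3G17060 (-2.74), AT1G54070 (-2.72), AT5G48140 (-2.61) and AT5G39880 (-2.50). The polygalacturonase AT5G48140 read 348.8 and 562.3 in T14 against 55.6 and 63.3 in HET. The largest rises were AT1G68875 (3.00), ATA27 (2.58), AT5G07230 (2.28), AT5G48210 (2.26) and AT3G05500 (1.97). ATA27 read 62.9 and 71.9 in T14, below CON, where HET lay above it. AT1G68875 read 47.3 and 41.4 in T14 and 664.1 and 328.2 in HET, with CON between them at 247.1 and 259.2. SHT, which had not passed against CON, passed here at 19.4 and 31.4 in T14 against 145.6 and 90.0 in HET (log2 1.68, limma adjusted p = 0.0173). Without HET replicate 1 the count was 61, and with the GAPDH ratio as a covariate it was 0 in limma (460 had an unadjusted p under 0.05).

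For a few genes HET lay near T14. Among the 89 named falls, 7 had a HET level no more than 0.5 below T14 on the log2 scale. Of these, 6 lie on chromosome 1, where TCP15 also lies. By locus number the 6 run from 2A6 (AT1G03410) to AT1G73490, with TCP15 at AT1G69690. Linkage to the insertion was not tested. Over all 89, 23 lie on chromosome 1, or 25.8%, against 26.1% of the tested genes. This set was formed after the values were seen. AT1G23960 read 100.3 and 100.2 in CON, 68.6 and 51.2 in T13, 2.5 and 5.7 in T14 and 3.9 and 5.7 in HET (log2 from CON -2.48, SE 0.29, limma adjusted p = 0.000929). 2A6, of the 2-oxoglutarate-dependent dioxygenases, read 92.0 and 75.8 in CON, 84.7 and 108.8 in T13, 24.7 and 37.8 in T14 and 22.1 and 31.5 in HET (log2 -1.23, limma adjusted p = 0.0298). HET and T14 overlapped in both genes and lay below CON and T13.

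The TRAF-like gene AT1G65370 read 438.6 and 244.4 in CON, 108.2 and 94.8 in T14 and 63.7 and 99.8 in HET (log2 -1.84, limma adjusted p = 0.0058). ECS1, a cell-wall-associated protein, read 328.0 and 81.1 in CON against 20.0 and 18.5 in HET (log2 -2.38, SE 0.44, limma adjusted p = 0.0226). AT1G73490 and AT1G21770 had -1.79 and -1.46, and the seventh gene, AT5G38760 on chromosome 5, had -1.76. AT1G23960 alone of the 7 was still called without HET replicate 1. The chromosomes of the named falls otherwise differed from the tested genes mainly in that chromosome 3 held 30.3% of them against 20.0%, and chromosome 4 held 7.87% against 14.4%. No test was made of these shares.

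**Figure D5:**
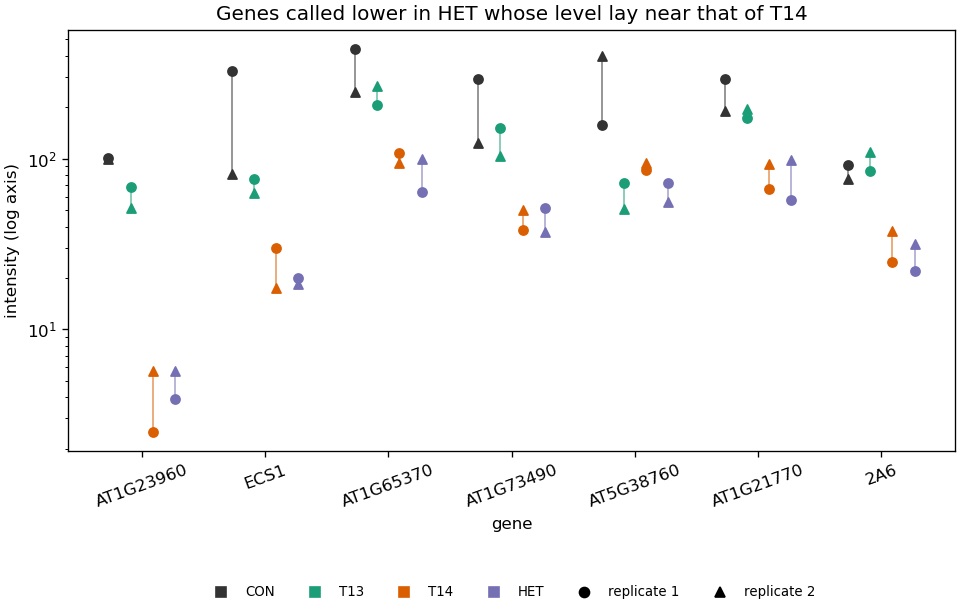
Intensity on a log axis for the 7 genes called lower in HET than in CON whose HET level lay near T14, with circles for replicate 1 and triangles for replicate 2. For the 6 genes on chromosome 1 the T14 and HET points lie together below the CON and T13 points, while AT5G38760 has T13 down with them.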

How the data were processed

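RNA of 8 samples was hybridised to Affymetrix ATH1 arrays. The deposited values are linear intensities, and the software with which the authors summarised probes was not given in the sources used here. Array means after trimming 2% from both ends were equal, so no further scaling was applied. Precision is limited by the number of arrays. Genes were named through the platform annotation and the RefSeq table of TAIR10.1: 13513 of the 22746 probe sets compared had 1 gene, 503 several and 8730 none listed. The deposited files name no build, so no coordinates are given.

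Probe sets at or above the 40th percentile of at least 2 arrays were tested, which left 15045. The values, log2(intensity + 16), went into limma 3.58.1 (lmFit, eBayes with trend; R 4.3.3), all 4 groups sharing 1 variance (4 residual and 7.39 prior degrees of freedom), with Benjamini-Hochberg adjustment per comparison and calls at 0.05. The procedure was checked on simulated data. Alternatives numbered 19: pseudocount, filter, normalization, variance prior, array weights, compared groups alone, scanner background or GAPDH ratio as covariates, and each array left out.

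The genes, lists and rules were chosen with earlier results of these data known, and 8 lists of whole families or of chosen family members and the roles after the values of this comparison were seen. Named by rule were TCP15, all called rises, the 15 largest called falls with separated groups, up to 4 called or 2 uncalled members of each list, the 3 genes on each side of the threshold, and the leading differences from T13 and T14. Other named genes are members of the families or roles described. The fixed lists matched few probe sets where the tables carry no gene descriptions, 8 of the 30 matching none. Figures were drawn with matplotlib 3.10.9.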

Additional observations from a re-analysis of the deposited data

Results flagged for a closer look

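GAPDH control probe sets enter no comparison. On HET replicate 1 their 5′ over 3′ ratio was 0.345, a value higher than on either CON array. Its part in the results was not tested beyond the fits without that array and with the ratio as a covariate.

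HET and T14 were tested directly against each other, and so differ in their contrast with the shared CON arrays, at the following named genes (limma). On the log2 scale HET was higher than T14 at AT1G68875 by 3.00, at ATA27 by 2.58, at AT5G07230 by 2.28, at AT5G48210 by 2.26 and at AT3G05500 by 1.97. It was lower at AT1G04470 by a difference of -2.75, AT3G17060 by -2.74, AT1G54070 by -2.72, AT5G48140 by -2.61 and AT5G39880 by -2.50.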

How the results depend on the processing

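Of the 161 probe sets called in HET against CON, 49 passed in all 19 alternatives, all of them falls, and all 161 kept their sign. The count of 161 moved beyond 1.5 times to 52 with the GAPDH covariate and to 102 with scanner background, and ran from 86 to 184 when each array was left out in turn, with 86 without HET replicate 1, 104 without HET replicate 2 and 103 without CON replicate 2. HET against T13 gave 0 calls and 1 without the intensity trend, and 0 to 2 with arrays left out. HET against T14 gave 146 calls, 84 without the filter, where 22746 probe sets were tested, 0 with the GAPDH covariate, and 61 to 155 with arrays left out. The cause of these changes was not tested. Among named genes no call changed sign. Uncalled differences from CON that turned were SK18 (-0.23), EIN3 (-0.029) and AT3G05500 (-0.71) with the GAPDH covariate, AT2G44060 (-0.012) and AT3G05500 (-0.28) with scanner background, and, with arrays left out, TCP15 (-0.24 to 0.041), AT1G16020 (-0.0040 to 0.31), CML41 (-0.10 to 0.58), SK18 (-0.21 to 0.50) and AT3G05500 (-0.36 to 0.37).

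No paired analysis was possible because replicate numbers were given in accession order and do not pair arrays.

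The limits are 2 arrays a group, a control whose genotype is not described, 1 line per insertion, no probe set named for TCP14, and a HET array with an unusual GAPDH ratio. Intensities near the floor of the arrays give fold changes that depend on the added 16.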

Other observations

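Among genes higher in HET than in T14 was AT3G05500, of the rubber elongation factor family that coats lipid droplets. It read 115.8 and 160.5 in CON, 42.7 and 10.1 in T14 and 181.1 and 103.1 in HET, so HET and CON overlapped (log2 0.01 from CON, limma adjusted p = 1). Another, a probe set shared by AT3G15395 and AT3G15400, read 797.1 and 1015.7 in CON, 457.0 and 402.0 in T14 and 1834.3 and 1690.2 in HET, a difference from CON of 0.96 that narrowly missed the threshold (limma adjusted p = 0.0613). This probe set was chosen after its values were seen.

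Of the 59 unnamed probe sets called lower in HET, the largest log2 difference was -3.27, at 227.4 and 271.8 in CON and 24.9 and 2.5 in HET, and it passed in all 19 alternatives. Another read 1049.2 and 1045.0 in CON and 153.2 and 210.2 in HET (log2 -2.44).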
